A study of Macaca mulatta with 24 samples.

Results

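The 10 Hippo pathway genes YAP1, WWTR1, TEAD1, TEAD2, TEAD3, TEAD4, LATS1, LATS2, SAV1 and AMOTL2 were followed through the RNA-seq of visceral (omental) white adipose tissue (WAT) of rhesus macaques. They are 10 of the 32386 genes counted. Each was found by its symbol, 9 in the gene name table and TEAD4 through the study's supplementary tables, and 9 of the 10 passed the filter on low counts. The 24 libraries came from 24 females, 1 library per animal and 6 animals per group. Controls (C) carried cholesterol implants and ate monkey chow, T animals carried testosterone implants and ate chow, WSD animals carried cholesterol implants and ate a high-fat western-style diet, and T + WSD animals received testosterone and that diet, in all groups for 3 years. The labels put the females at 4 years old, whereas the study's methods give an older age at biopsy. The authors picked animals that reflected the metabolic findings of their larger groups. Testosterone came from subcutaneous capsules, which mimic mild hyperandrogenemia. Each library came from a piece of whole omental WAT, so that fewer cells of a type and less RNA per cell cannot be told apart in it.

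The Hippo pathway is a kinase cascade that limits organ growth and responds to cell contact, cell polarity and mechanical load. The kinases STK3 and STK4, held by the scaffold SAV1, activate LATS1 and LATS2, and these phosphorylate the co-activators YAP1 and TAZ (the product of WWTR1) and keep them in the cytoplasm. When the cascade is off, YAP1 and TAZ enter the nucleus and drive transcription through the TEAD factors, which bind DNA. Angiomotin proteins such as AMOTL2 hold YAP1 at junctions and actin. In adipose precursors, YAP1 and TAZ are known as brakes on adipocyte differentiation. Much of this control acts on phosphorylation and location, which RNA-seq does not measure.

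Total counts ran from 6899185 to 28270776 per library, with a median of 20630512.5. In 8 libraries, 2 of each group, the gene ENSMMUG00000038258 took more than 5% of the counts (from 9.92% to 54.7%). These libraries are called the library batch here. The name rests on that share alone, since the sample labels used here name no batch. C 1 had the lowest share of the 8, at 9.92%. Levels below are CPM, a gene's counts scaled to a TMM-adjusted library of 1000000 counts, and are set side by side between groups for the same gene only. Adiponectin (ADIPOQ), which marks adipocytes, lay between 381 and 2124 CPM in the 24 libraries, and the lipid droplet protein PLIN1 between 315 and 2812 CPM. Animal C 1 stood apart. Its summed level of 9 mesothelial genes, from the lining of the omentum, was 38893 CPM against a median of 7579 CPM in C, and its summed level of 8 adipocyte genes was 2084 CPM against a median of 10237 CPM. Without it the summed mesothelial level in C ran from 2722 to 9751 CPM (n = 5). C 1 is also in the library batch. For many genes named below, the value in T + WSD against C without it is given beside the result. Where no such value is given, the result need not be stable without it. Over all genes, 5.87% were called in T + WSD against C without C 1, beside 10% with it.

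YAP1 had its highest group mean in T + WSD and TEAD4 its highest in C, while the means of LATS1, SAV1 and AMOTL2 stayed close in the 4 groups. None of the 9 tested members passed the call in any comparison, where a call needs a fold change over 1.5 together with an adjusted p under 0.05 (edgeR's quasi-likelihood test, Benjamini-Hochberg adjustment over 15207 genes). In T + WSD against C, 0 of 9 members were called, where 1522 of all 15207 tested genes were (10%). For T + WSD against T, 0 of 9 stood beside 3.77% of all genes, and for T + WSD against WSD, 0 of 9 beside 0.815%. WSD against C and T against C gave 0 of 9 members, and 0% of all genes were called there in edgeR. At an unadjusted p under 0.05 stood 1 member in T + WSD against C (32.1% of all genes), 0 in WSD against C (18.5%) and 1 in T against C (8.63%). The comparisons of T + WSD with WSD (20%) and with T (25.9%) had 1 member each. DESeq2 called 1 member, TEAD4, in T + WSD against C, beside 10.9% of the genes it tested. It called 0 members in T against C (0.0290%), WSD against C (1.58%), T + WSD against T (6.10%) and T + WSD against WSD (2.62%). For 0 of the 9 members did the compared groups lie apart without overlap, whereas T + WSD lay apart from C for 7.61% of all genes, from T for 6.10% and from WSD for 2.84%, and C lay apart from WSD for 0.401% and from T for 0.263%. The plot of levels by animal shows this overlap.

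**Figure D1:**
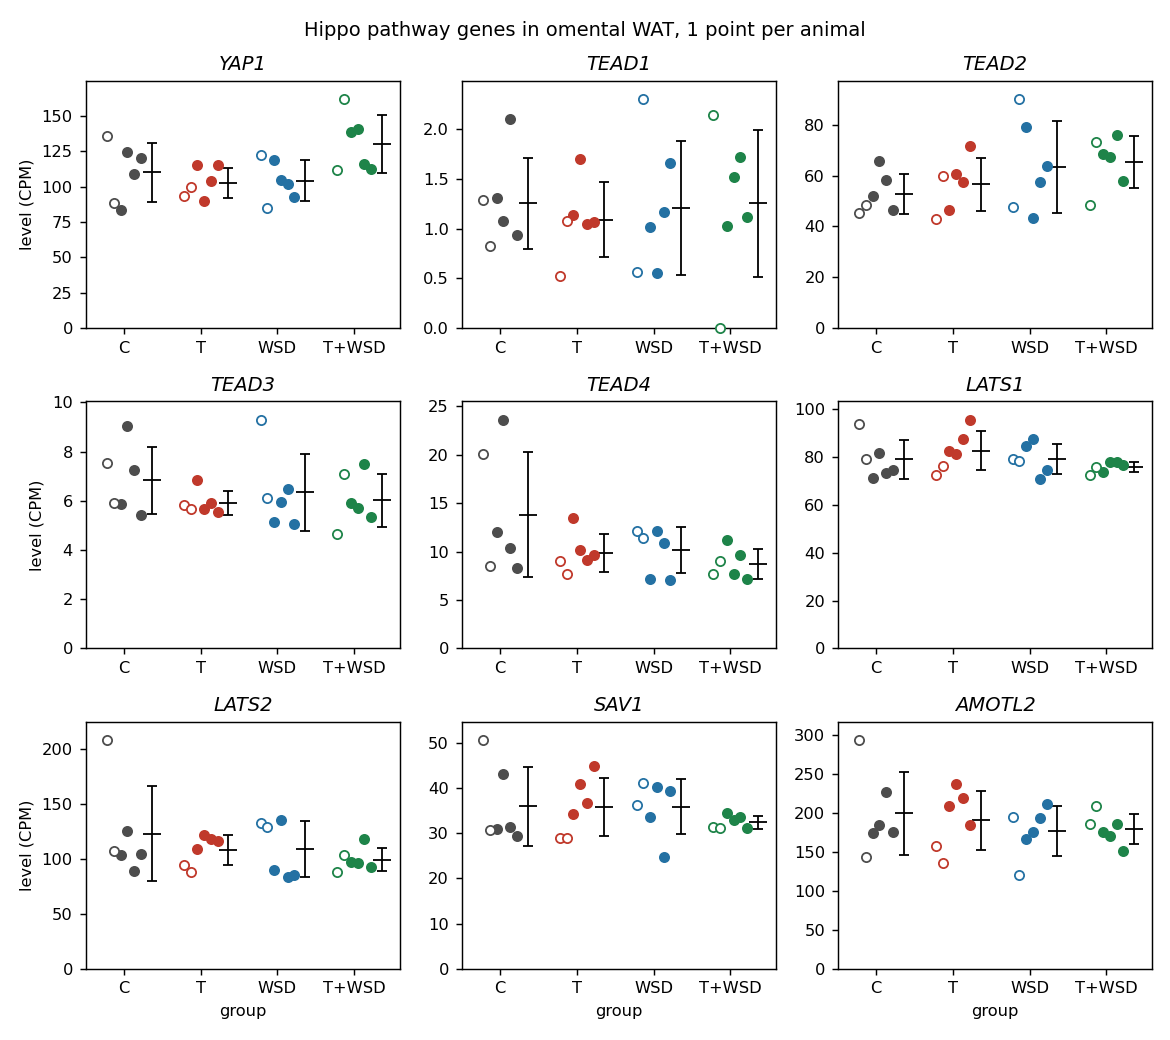
Level of 9 Hippo pathway genes in each animal (vertical axes, CPM, starting at 0) by group (horizontal axes). Open points are the 8 libraries of the library batch, and the bars beside the points give the mean ± SD of 6 animals. The groups overlap for every gene, and YAP1 has its highest mean in T + WSD (130 CPM). The SD is largest in C for YAP1, TEAD4, LATS1, LATS2, SAV1 and AMOTL2.

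WWTR1 (ENSMMUG00000018982), which encodes TAZ, was hardly counted. Its row held 0 counts in every C and WSD animal, at most 1 count in a T animal and at most 2 counts in a T + WSD animal. These values lie under a floor of 3 counts, so no fold change is given. Per 1000000 raw counts the floor is 0.106 to 0.435, depending on the library's depth. That scale lacks the TMM adjustment of the CPM used here, so these 2 values are no bounds in CPM. The floor limits only the reads assigned to this row. The deepest library, T 18, also had 0 counts, and whether the row covers the WWTR1 transcripts made in this tissue was not tested, so it is no bound on WWTR1 expression and no measure of TAZ in the 4 groups.

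YAP1 (ENSMMUG00000003396), the partner of TAZ and the main co-activator of TEAD factors, was well detected in all animals. It ran from 83.2 to 136 CPM in C (median 114), from 89.6 to 115 CPM in T (median 102), from 84.6 to 122 CPM in WSD (median 103) and from 112 to 162 CPM in T + WSD (median 127). The mean was 130 ± 20.2 CPM for T + WSD, 104 ± 14.7 for WSD, 103 ± 10.7 for T and 110 ± 20.8 for C (SD, n = 6). The T + WSD animals thus filled the upper part of the range, with T + WSD 8 the highest of all 24, but C and T + WSD overlapped widely. Of the T + WSD animals, 3 lay above every C animal, 3 above every WSD animal and 4 above every T animal.

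The difference in YAP1 was largest against T, with a log2 fold change of 0.34 (SE 0.13, 95% interval 0.08 to 0.60, unadjusted p = 0.0126, adjusted p = 0.0958 in edgeR). Against WSD it was 0.32 (SE 0.13, interval 0.06 to 0.58, adjusted p = 0.153 in edgeR), and against C it was 0.24 (SE 0.13, interval -0.02 to 0.50, unadjusted p = 0.0687, adjusted p = 0.192 in edgeR). Without C 1 the difference from C was 0.33 (SE 0.13, interval 0.07 to 0.59, unadjusted p = 0.0164, adjusted p = 0.0999 in edgeR), still not called. These comparisons share the T + WSD animals and are not independent of each other. Each treatment alone left YAP1 close to C, at a log2 fold change of -0.10 for T (interval -0.36 to 0.16) and -0.08 for WSD (interval -0.34 to 0.18). The interaction, which asks whether the effect of testosterone differs between the diets, was 0.42 on the log2 scale (SE 0.18, interval 0.05 to 0.78, unadjusted p = 0.0269, adjusted p = 0.296 in edgeR), and without C 1 it was 0.36 (unadjusted p = 0.0494, adjusted p = 0.384 in edgeR). An interaction was called at an adjusted p under 0.1, and 0 of 9 members passed it where 0.809% of all genes did (unadjusted p under 0.05 for 1 member and 13.5% of all genes, and 0 members called by DESeq2 beside 2.77%). In the 16 libraries outside the batch the YAP1 difference was 0.29 against WSD and 0.27 against T. At an unadjusted p under 0.05 in edgeR, these libraries had 0 members against WSD and 1 against T (1911 and 3775 of 15448 genes). With the mean mesothelial level as a covariate it was 0 members in both (1549 and 1166 of 15207 genes). The 9 alternatives include the main fit with no fold threshold. Over them the adjusted p of YAP1 in edgeR or DESeq2 ran from 0.109 to 0.552 against WSD. Against T it ran from 0.0397 to 0.747. With each animal left out in turn the YAP1 difference ran from 0.26 to 0.37 against WSD and from 0.28 to 0.38 against T. With only the groups T + WSD and T in the fit it was 0.37 (adjusted p = 0.0397 in edgeR), under the fold threshold.

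The TEAD factors share a DNA-binding domain and differ in where they are expressed. TEAD1 (ENSMMUG00000010875) was counted at only 0 to 48 reads per library, and whether the row covers its transcripts in this tissue was not tested. It ran from 0.821 to 2.11 CPM in C (median 1.18), from 0.523 to 1.71 CPM in T (median 1.07), from 0.552 to 2.30 CPM in WSD (median 1.09) and from 0 to 2.15 CPM in T + WSD (median 1.32). The 0 is that of T + WSD 8, the shallowest library. There, 25 counts of TEAD3 stood for 7.07 CPM, so a count of 0 is only a loose bound. It does not place this animal below the lowest animals of the other groups. All groups covered nearly the same range. Its log2 fold change in T + WSD against C was 0.05 with an interval from -0.81 to 0.90, so that neither a rise nor a fall of 1.5-fold lies outside the interval.

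TEAD2 (ENSMMUG00000014791) had its lowest mean in C and its highest in T + WSD. It ran from 45.4 to 65.6 CPM in C (median 50.3), from 42.8 to 71.7 CPM in T (median 58.9), from 43.2 to 90.1 CPM in WSD (median 60.6) and from 48.6 to 76.0 CPM in T + WSD (median 67.9). In the T + WSD group 4 of 6 animals lay above every C animal, and the highest level of all, in WSD 20, was not in that group. The log2 fold change was 0.31 in T + WSD against C (SE 0.16, interval -0.03 to 0.64, adjusted p = 0.199 in edgeR), 0.27 in WSD against C (interval -0.07 to 0.61) and 0.10 in T against C (interval -0.23 to 0.44). None of these passed the test.

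TEAD3 (ENSMMUG00000015909) covered a narrow range. It ran from 5.44 to 9.04 CPM in C (median 6.58), from 5.53 to 6.86 CPM in T (median 5.75), from 5.07 to 9.29 CPM in WSD (median 6.03) and from 4.66 to 7.48 CPM in T + WSD (median 5.79). Its largest difference from C was -0.21 on the log2 scale, in T (SE 0.15, interval -0.53 to 0.11, adjusted p = 0.715 in edgeR). In each comparison of groups its interval stayed within 1.5-fold either way.

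TEAD4 (ENSMMUG00000011299) was the member with the largest differences from C and the one that the study's own Hippo list, chosen on these samples, contains. It ran from 8.30 to 23.6 CPM in C (median 11.2), from 7.72 to 13.5 CPM in T (median 9.38), from 7.07 to 12.2 CPM in WSD (median 11.1) and from 7.11 to 11.2 CPM in T + WSD (median 8.36). The animals C 4 (23.6 CPM) and C 1 lay far above all the others, and the remaining C animals fell into the range of the treated groups. Of the T + WSD animals, 3 of 6 lay below every C animal.

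In T + WSD against C the log2 fold change of TEAD4 was -0.67 (SE 0.23, interval -1.15 to -0.19), with an unadjusted p of 0.00881 and an adjusted p of 0.0509 in edgeR, just outside the call. DESeq2 gave -0.65 with an adjusted p of 0.0429, which passed. The values for T against C (-0.49, SE 0.23, adjusted p = 0.574 in edgeR) and WSD against C (-0.46, SE 0.23, adjusted p = 0.290 in edgeR) used the same C animals and were not called. With each animal left out in turn they ran from -0.60 to -0.27 for T and from -0.57 to -0.24 for WSD. Between the treated groups the differences were smaller, at -0.21 for T + WSD against WSD (interval -0.69 to 0.28) and -0.18 against T (interval -0.66 to 0.30). Without C 4 the log2 fold change in T + WSD against C was -0.45 (adjusted p = 0.158 in edgeR), and without C 1 it was -0.52 (adjusted p = 0.163 in edgeR). Leaving out C 2, C 5, C 6 or T + WSD 9 instead brought it past the call, with adjusted p values in edgeR of 0.0327, 0.0353, 0.0228 and 0.0473. In the 16 libraries outside the batch it was -0.59 (adjusted p = 0.261 in edgeR).

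Mesothelial genes differed between the same groups. Of the 9 mesothelial markers with a row, 8 were lower in T + WSD than in C, beside 5.29% of all genes. CALB2 had a log2 fold change of 0.28 (adjusted p = 0.750 in edgeR). The summed level of the 9 genes ran from 235 to 3070 CPM for T + WSD, from 707 to 5977 for WSD, from 2784 to 17570 for T and from 2722 to 38893 for C (up to 9751 without C 1). The same number of markers, 8 of 9, was lower without C 1. No defining marker was at 0, since MSLN had at least 68 counts and UPK3B at least 34 in every library. With the mean level of this list as a covariate, the log2 fold change of TEAD4 in T + WSD against C was -0.24 (adjusted p = 1.0 in edgeR), and 0 of all tested genes were called in that fit (488 at an unadjusted p under 0.05). The list differs between C and T + WSD, and its effect and that of the treatment cannot be told apart in this fit. Among the other cell types, 4 of 8 endothelial markers and 4 of 8 smooth muscle and pericyte markers were higher in T + WSD than in C. So were 1 of 8 adipocyte markers (LEP), 1 of 6 macrophage markers (MSR1) and 1 of 7 fibroblast markers (DPT), beside 4.72% of all genes. Of 4 T and NK cell markers and 4 B cell markers, 0 were called in edgeR (0 of each at an unadjusted p under 0.05). Some of these rows were hardly counted. FABP4, on the adipocyte list, had 9 to 79 counts per library, the T cell marker CD3E 1 to 70 and the B cell marker MS4A1 0 to 43. The part of these cell types in the members' levels was not tested.

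**Figure D2:**
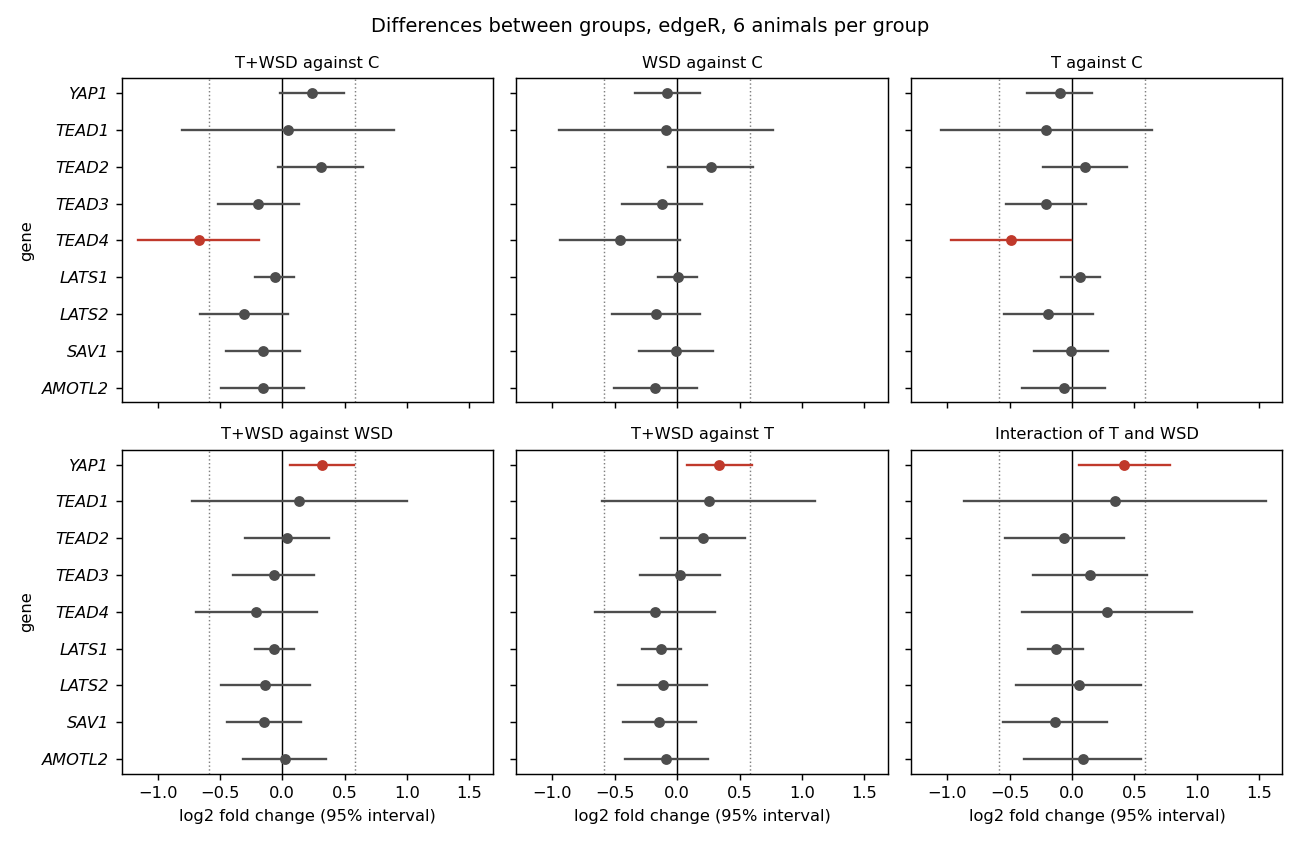
Log2 fold change (horizontal axis) of 9 Hippo pathway genes (vertical axis) with 95% intervals from edgeR in 5 comparisons of groups and in the interaction, 6 animals per group. Dotted lines mark a fold change of 1.5 and red marks an unadjusted p under 0.05. Red appears for TEAD4 in T + WSD against C (-0.67) and T against C (-0.49), and for YAP1 in T + WSD against WSD (0.32), T + WSD against T (0.34) and the interaction (0.42), none of which passed the call.

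LATS1 (ENSMMUG00000009827), a kinase that phosphorylates YAP1 and TAZ, was the steadiest member. It ran from 71.3 to 93.9 CPM in C (median 77.0), from 72.7 to 95.7 CPM in T (median 82.0), from 70.8 to 87.5 CPM in WSD (median 78.9) and from 72.6 to 78.0 CPM in T + WSD (median 76.2). The 4 ranges lay on top of each other, and the highest animal of the 24 had 1.35 times the level of the lowest. The log2 fold change in T + WSD against C was -0.06 (SE 0.08, interval -0.22 to 0.10, adjusted p = 0.629 in edgeR) and 0.01 without C 1, and its intervals stayed within 1.5-fold in all 5 comparisons of groups and in the interaction.

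LATS2 (ENSMMUG00000019006), the other LATS kinase and itself a transcriptional target of YAP1 and TAZ, had a single high animal. It ran from 89.3 to 208 CPM in C (median 106), from 87.7 to 121 CPM in T (median 112), from 83.6 to 136 CPM in WSD (median 109) and from 88.4 to 118 CPM in T + WSD (median 96.8). The 208 CPM were those of C 1, and the next animal of its group had 125 CPM. The log2 fold change in T + WSD against C was -0.31 (SE 0.17, interval -0.66 to 0.05, adjusted p = 0.225 in edgeR). Without C 1 it was -0.07, and in the 16 libraries outside the batch it was -0.05.

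SAV1 (ENSMMUG00000029358), the scaffold that brings STK3 and STK4 to the LATS kinases, had a mean of 32.4 ± 1.45 CPM for T + WSD, 35.9 ± 6.13 for WSD, 35.8 ± 6.42 for T and 36 ± 8.78 for C (SD, n = 6). It ran from 29.3 to 50.6 CPM in C (median 31.1), from 28.9 to 44.8 CPM in T (median 35.4), from 24.7 to 41.1 CPM in WSD (median 37.8) and from 31.1 to 34.4 CPM in T + WSD (median 32.1). The T + WSD range lay inside that of every other group. No difference passed the test, the log2 fold change in T + WSD against C being -0.15 (SE 0.14, interval -0.45 to 0.14, adjusted p = 0.495 in edgeR) and -0.01 without C 1.

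AMOTL2 (ENSMMUG00000021694) encodes an angiomotin that binds YAP1, and it is also widely used as a readout of YAP1 and TAZ activity. It ran from 144 to 293 CPM in C (median 180), from 136 to 237 CPM in T (median 196), from 120 to 212 CPM in WSD (median 184) and from 151 to 209 CPM in T + WSD (median 181). The 293 CPM were again those of C 1, and the T + WSD range lay inside that of C. In T + WSD against C the log2 fold change was -0.16 (SE 0.16, interval -0.49 to 0.18, adjusted p = 0.542 in edgeR), and without C 1 it was 0.01.

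Seen together, the members' median log2 fold change in T + WSD against C was -0.15, with 3 positive and 6 negative values, beside a median of -0.04 over all tested genes. The intervals of 5 of the 9 members lay within 1.5-fold either way in that comparison, as did those of 42.3% of all genes. For WSD against C this held for 6 members and 46.7% of all genes, for T against C for 7 and 52.6%, for T + WSD against T for 6 and 45.9%, and for T + WSD against WSD for 7 and 47.0%. For these members a change of more than 1.5-fold lies outside the 95% interval, which cannot be said of TEAD1 and TEAD4 in any comparison.

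The animals varied in more than their group. The biological coefficient of variation of edgeR, the spread between animals of a group beyond counting error, was 10.8% for LATS1, and only 3.43% of the tested genes were at or below it. It was 16.1% for YAP1, 18% for SAV1, 18.5% for TEAD3, 20.2% for AMOTL2, 20.2% for TEAD2 and 21.4% for LATS2, all under the median of 22.1% over the tested genes. TEAD4 with 28.4% and TEAD1 with 36.8% lay above that median. C 1 had the highest level of the 24 animals for 3 members (LATS2, SAV1 and AMOTL2) and WSD 23 the lowest for 3 (LATS1, LATS2 and SAV1).

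**Figure D3:**
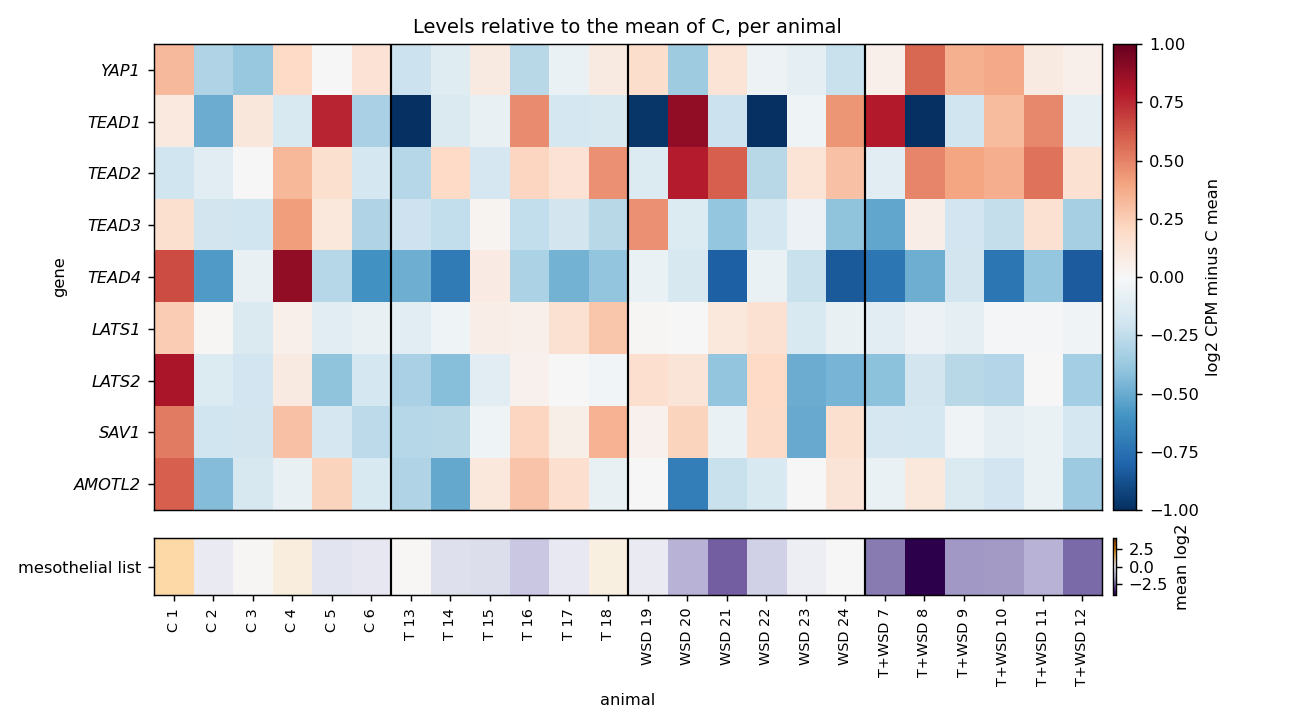
Level of 9 Hippo pathway genes in each of 24 animals, as log2 CPM minus the mean of C (upper panel, colours saturate at 1 either way), and the mean log2 CPM of 9 mesothelial genes on the same footing (lower panel, with its own scale). Vertical lines part the groups. C 1 is the reddest column for LATS2, SAV1 and AMOTL2 and has the highest mesothelial value, T + WSD 8 has the lowest mesothelial value and the highest YAP1, and the TEAD1 row mixes high and low animals in every group.

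The rest of the pathway was read from 5 lists written from general knowledge, with 63 genes, of which 52 were tested. In T + WSD against C, 2 of these 52 were higher and 7 lower, or 9 calls, beside 4.72% of all genes higher and 5.29% lower. Without C 1, 3 were higher and 4 lower. The interaction and the comparisons of T + WSD with WSD, of WSD with C and of T with C called 0 of the 52 in edgeR (5, 9, 12 and 7 at an unadjusted p under 0.05). T + WSD against T gave 1 higher and 1 lower gene, beside 2.34% and 1.43% of all genes.

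The kinase list, of kinases above LATS1 and LATS2 or related to them, held 8 tested genes. In T + WSD against C, 0 of the 8 were called in edgeR, beside 10% of all genes. At an unadjusted p under 0.05 stood 5 of the 8, beside 32.1% of all genes. TAOK3, a kinase that activates STK3 and STK4, had 44.4 ± 4.61 CPM in T + WSD and 36.2 ± 3.46 in C (SD, n = 6), a log2 fold change of 0.29 with an adjusted p of 0.0236 in edgeR. MAP4K4, which can phosphorylate the LATS kinases directly, had 214 ± 16.3 CPM against 183 ± 17.8, a log2 fold change of 0.22 with an adjusted p of 0.0437 in edgeR. Both stayed under the fold threshold of 1.5. STK38L, a LATS-related kinase, had a log2 fold change of 0.49 (adjusted p = 0.0768 in edgeR) and TAOK1 one of 0.16 (adjusted p = 0.106 in edgeR).

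The 18 tested genes of the upstream and junction list moved both ways in T + WSD against C, with 2 higher, 3 lower and 13 not called. Over all genes, 4.72% were higher and 5.29% lower. Without C 1, 2 of the 18 were higher and 2 lower. FAT4, an atypical cadherin that feeds into the pathway, rose from 98.3 ± 25.9 CPM in C to 156 ± 9.73 in T + WSD (SD, n = 6, log2 fold change 0.67, SE 0.17, adjusted p = 0.0135 in edgeR), and all 6 T + WSD animals lay above every C animal. AMOT, the founding angiomotin and a relative of AMOTL2, rose from 43.7 ± 12.2 to 74.5 ± 23.6 CPM (log2 fold change 0.76, adjusted p = 0.0236 in edgeR). The polarity protein LLGL2 fell from 12.7 ± 8.09 to 4.22 ± 1.09 CPM (log2 fold change -1.57, adjusted p = 0.00344 in edgeR), and WWC1 (KIBRA), which recruits the kinases together with NF2, fell from 82.9 ± 58.2 to 25.4 ± 9.32 CPM (log2 fold change -1.69, adjusted p = 0.00717 in edgeR). For LLGL2 all 6 T + WSD animals lay below every C animal, and for WWC1 4 of 6 did. Without C 1 the mean of C was 9.58 ± 2.83 CPM for LLGL2 and 66.1 ± 46.0 for WWC1 (SD, n = 5), and the log2 fold changes were -1.14 and -1.34 (adjusted p = 0.00884 and 0.0265 in edgeR), both still called. LLGL2 was also the gene lower in T + WSD than in T, at a log2 fold change of -1.11 (adjusted p = 0.0328 in edgeR).

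The kinase restraint list, whose name need not hold for every gene on it, had 10 tested genes. Of these, 2 were lower in T + WSD than in C, 0 higher and 8 not called, beside 5.29% of all genes lower and 4.72% higher. AJUBA, a LIM protein that holds LATS kinases inactive at junctions, fell from 74.3 ± 49.5 CPM in C to 25.3 ± 4.97 in T + WSD (SD, n = 6, log2 fold change -1.55, SE 0.34, adjusted p = 0.00616 in edgeR). RASSF6, which binds STK3 and STK4, fell from 7.76 ± 7.10 to 1.79 ± 0.644 CPM (log2 fold change -2.09, adjusted p = 0.0074 in edgeR). For both, all 6 T + WSD animals lay below every C animal, where T + WSD lay apart from C for 7.61% of all genes. AJUBA and RASSF6, like FAT4, LLGL2 and ASAP1, were named for their small p in this comparison, so lack of overlap is no separate support. Without C 1 the mean of C was 54.8 ± 14.1 CPM for AJUBA and 4.90 ± 1.33 for RASSF6 (SD, n = 5), and both were still called, at log2 fold changes of -1.09 and -1.41 (adjusted p = 0.0222 and 0.0287 in edgeR). PPP2R1A, a subunit of the phosphatase PP2A, and SIKE1 had log2 fold changes of -0.15 and -0.24 (adjusted p = 0.163 and 0.209 in edgeR).

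Downstream, the VGLL cofactors bind TEAD factors, where VGLL4 competes with YAP1, and 2 of the 4 were tested. VGLL4 had 19.7 ± 2.49 CPM in T + WSD and 26.4 ± 2.86 in C (SD, n = 6), a log2 fold change of -0.42 with an adjusted p of 0.0665 in edgeR, and VGLL3 had a log2 fold change of -0.25 (adjusted p = 0.648 in edgeR). Of 14 tested targets of YAP1 and TAZ, 0 were higher, 2 lower and 12 not called, beside 4.72% of all genes higher and 5.29% lower. MYOF, a membrane repair protein, fell from 357 ± 113 to 208 ± 29.9 CPM (log2 fold change -0.78, adjusted p = 0.0206 in edgeR) and the growth factor TGFB2 from 44.5 ± 7.56 to 27.5 ± 5.92 CPM (log2 fold change -0.70, adjusted p = 0.0357 in edgeR). ASAP1 had a log2 fold change of 0.57 (adjusted p = 0.00367 in edgeR), under the fold threshold, though all 6 T + WSD animals lay above every C animal, and ARHGEF17 one of 0.46 (adjusted p = 0.0716 in edgeR). Without C 1, MYOF and TGFB2 were not called (log2 fold changes -0.57 and -0.61, adjusted p = 0.0803 and 0.0970 in edgeR), and ARHGEF17 was (0.61, adjusted p = 0.0336 in edgeR). ARHGEF17 was the gene higher in T + WSD than in T, at 0.61 on the log2 scale (adjusted p = 0.0423 in edgeR). CCN1 and CCN2, the most used targets and outside the rule for named genes, had log2 fold changes of -0.37 (SE 0.52, adjusted p = 0.673 in edgeR) and 0.16 (SE 0.36, adjusted p = 0.808 in edgeR) and were named after their values were seen.

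**Figure D4:**
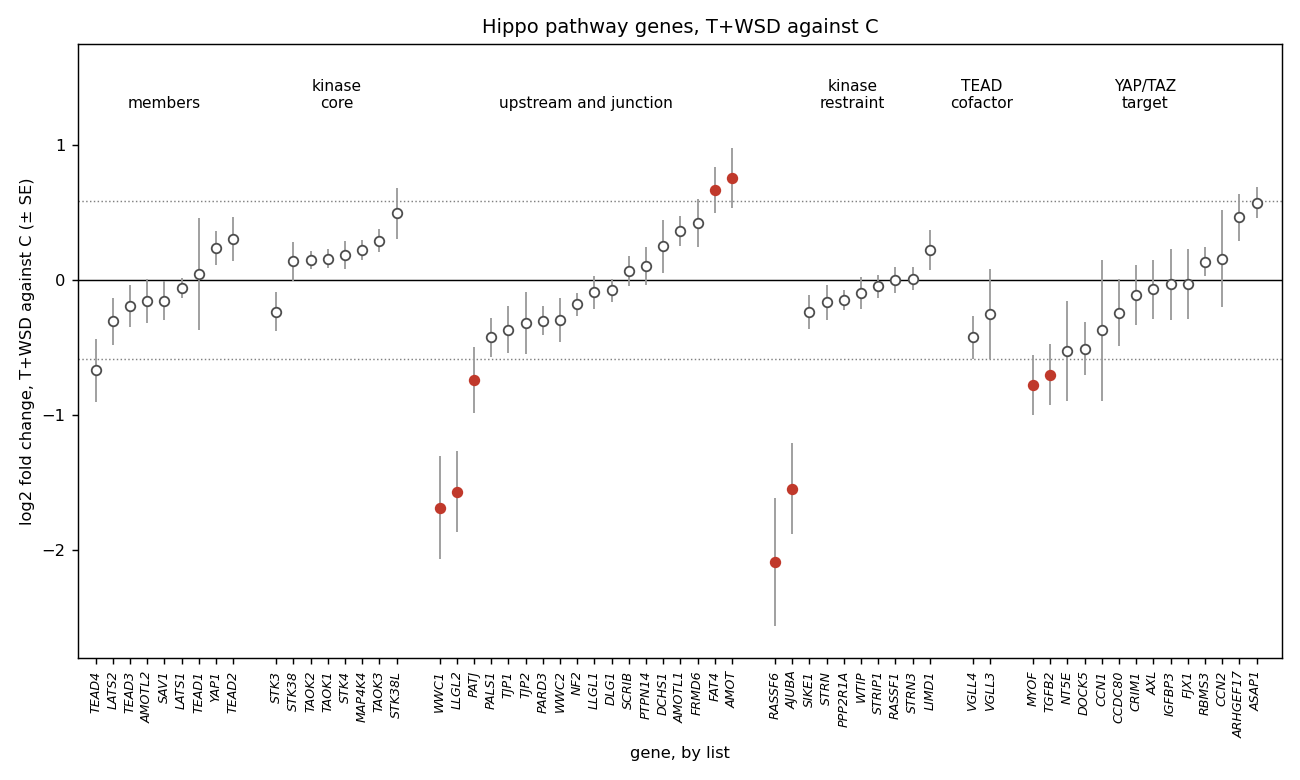
Log2 fold change ± SE (vertical axis) in T + WSD against C for 9 members and 52 other Hippo pathway genes (horizontal axis, by list and ordered within each list). Filled red points passed the call (2 higher and 7 lower of the 52) and dotted lines mark a fold change of 1.5. The members lie between -0.67 and 0.31, while RASSF6, WWC1, LLGL2 and AJUBA lie below -1.5.

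The study's Hippo list of 16 genes, TEAD4 included, was drawn from genes that differed in these animals, so its counts are not independent evidence of a direction. Of the 16, 6 were higher, 8 lower and 2 not called in T + WSD against C. AJUBA, WWC1 and RASSF6 are on it. The adaptor protein YWHAQ is on it too, but the row found here by that symbol (ENSMMUG00000006965) may not be the one the study listed, since the study's tables give this row no symbol. Without it, 6 of 15 genes were higher and 7 lower. Its level fell from 61.6 ± 7.09 to 40.0 ± 3.32 CPM (SD, n = 6, log2 fold change -0.62, adjusted p = 0.00409 in edgeR), and without C 1 its log2 fold change was -0.57, under the fold threshold. With the mesothelial list as a covariate, 0 genes of the upstream, restraint, target and study lists were called in edgeR. That fit called 0 of all 15207 tested genes, so it cannot set these lists apart from other genes. In the 16 libraries outside the batch, 1 upstream gene and 0 genes of the other 3 lists were called, where 78 genes were called in all. The counts changed with single animals left out too. Without C 3, 2 upstream genes, 1 target and 9 genes of the study's list were called, and without C 1, 1 target and 8 genes of the study's list. Over all genes, 5.87% were called without C 1, beside 10% with it. That share was not counted without C 3, so its counts cannot be set apart from a general change in calls.

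Each member was last compared with the tested genes that have a symbol, by the correlation of log2 CPM over the 24 animals (12351 genes). These are descriptions across animals that share depth, batch and treatment. YAP1 was most like EFNB2 (Pearson r = 0.85, and 0.82 after subtracting group means), RECK (0.83 and 0.85) and ARHGEF17 (0.82 and 0.74). TEAD4 was most like PHLPP2 (0.88 and 0.88), WDR75 and WDR43. LATS2 was most like SIRT1 (0.89 and 0.91), LEMD3 and DDX3X, and SAV1 like ARHGAP5 (0.86 and 0.88), SIRT1 and MINDY2, so that SIRT1 stood among the leading genes of both. LATS1 came with SLK, KDM3B and NBR1, AMOTL2 with IGF1R (0.82 and 0.83), VEZF1 and SNX33, and TEAD2 with TBC1D4, PREX2 and ATOSA. For TEAD3 the leading genes were AMPD3, DDX52 and SLC7A1 and for TEAD1 CFAP119, DNAAF8 and ATP6AP1L. The TEAD1 values rest on T + WSD 8, with 0 counts of TEAD1, since r was 0.85 to 0.87 for these genes with that animal and 0.48 to 0.52 without it. Without C 1, r was 0.81 for LATS2 and SIRT1, 0.77 for SAV1 and SIRT1 and 0.77 for AMOTL2 and IGF1R. All of these genes were picked for a high r among many on the same animals, and the values after subtracting group means are no separate check.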

How the data were processed

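The authors removed ribosomal RNA, sequenced 1 end of each fragment, used Trimmomatic 0.36 for trimming and mapped to the rheMac8 assembly by STAR 2.5.2b (versions from the submitters' processing notes). The deposited values are raw counts per gene, not normalized, 1 column per animal, and groups came from the labels. The counting tool and its strand setting are not given in the sources used here, so reads of overlapping, antisense or near-identical genes may be shared. The 276 pairs of libraries held 0 identical columns.

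The filter filterByExpr (minimum count 10, minimum total 15) kept 15207 genes. Counts were normalized with TMM and tested in R 4.3.3 with edgeR 4.0.16 (glmQLFit with robust=TRUE and legacy=TRUE, two-sided) in 1 fit of 24 animals and 4 groups, with Benjamini-Hochberg adjustment over all tested genes. Intervals are 95% intervals of that fit. Floors cover counting error only. Alternatives were DESeq2 1.42.0, RLE size factors, no filter, legacy=FALSE, no fold threshold, the compared groups alone, the library batch as a covariate or left out, the mesothelial mean as a covariate, and each animal left out in turn. Named genes are all members, up to 4 genes per pathway list (the called genes of T + WSD against C with the smallest p, then the next smallest p as values) and the 3 genes most like each member in log2 CPM with a prior count of 2. Members, lists and tests were chosen with earlier results of these data known. Gene lengths, positions and sequences were not used here.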

Additional observations from a re-analysis of the deposited data

Results flagged for a closer look

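In 36 sets of 6 animals (9 genes in 4 groups), 3 held an animal whose gap to its nearest neighbour, divided by the range of the group, passed Dixon's 95% critical value. Chance alone flags about 1 set in 20. LATS2 in C 1 was 208 CPM, where the nearest animal of C had 125 CPM. TEAD3 in T 15 was 6.86 CPM, where the nearest animal of T had 5.92 CPM. TEAD3 in WSD 19 was 9.29 CPM, where the nearest animal of WSD had 6.47 CPM. C 1 and WSD 19 belong to the library batch and T 15 does not, and the part of the batch in these values was not tested.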

How the results depend on the processing

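The count of called members in T + WSD against C went from 0 to 1, TEAD4, with DESeq2 and with legacy=FALSE (edgeR adjusted p = 0.0455), and lay between 0 and 1 when each animal was left out in turn. It was 0 under the other alternatives, and in the other 5 comparisons it was 0 throughout. Leaving out C 1 or C 3 gave 8 or 9 called genes of the study's list (14 with all animals). The upstream list (5 called) kept 2 without C 3 and 3 without T + WSD 7 or T + WSD 8, and the target list (2 called) had 1 without C 1, C 3, T + WSD 7, T + WSD 8 or T + WSD 9. The kinase list (0 called) had 1 without C 2 or T + WSD 12 and 2 without a fold threshold, and with no filter 1 target was called. For these list counts, the share of all genes called is given only without C 1 (5.87%, beside 10% with all animals). The other list counts thus cannot be set apart from a general change in calls. No paired analysis was possible because the animals' numbers run from 1 to 24 and no number occurs in more than 1 group. TEAD1 had at most 48 counts in a library and WWTR1 at most 2, which limits the precision of both. Whether these rows cover the transcripts of TEAD1 and WWTR1 in this tissue was not tested. The cause of the changes below was not tested.

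Of 1224 log2 fold changes of members under the alternatives, 1140 kept sign and side of the threshold. Among these, the values with no fold threshold came from the main fit, so their sign could not change. Another 6 passed the call (all TEAD4 in T + WSD against C). The other 78 changed sign, 0 of them with an unadjusted p under 0.05 in edgeR or DESeq2. With no filter these were SAV1 in T against C (0.0091), AMOTL2 in T + WSD against WSD (-0.010) and TEAD3 in T + WSD against T (-0.010). In the 16 libraries outside the batch they were LATS1 in T + WSD against C (0.042), SAV1 in WSD against C (0.039), LATS2, SAV1 and AMOTL2 in T against C (0.14, 0.22 and 0.16), TEAD3, LATS2 and AMOTL2 in T + WSD against WSD (0.12, 0.046 and -0.12) and TEAD2, LATS2 and AMOTL2 in the interaction (0.061, -0.097 and -0.28). With the mesothelial covariate they were SAV1 in T + WSD, WSD and T against C (0.054, 0.083 and 0.035), TEAD1 in WSD against C (0.00095), TEAD2, TEAD3, TEAD4 and LATS2 in T + WSD against WSD (-0.079, 0.032, 0.033 and 0.0033) and TEAD4, LATS2, SAV1 and AMOTL2 in T + WSD against T (0.15, 0.075, 0.019 and 0.031). With each animal left out in turn, T + WSD against C ranged from -0.13 to 0.26 for TEAD1, -0.089 to 0.014 for LATS1, -0.21 to 0.0068 for AMOTL2 and -0.78 to -0.45 for TEAD4. WSD against C ranged from -0.33 to 0.12 for TEAD1, -0.025 to 0.064 for LATS1, -0.25 to 0.047 for LATS2 and -0.062 to 0.12 for SAV1. T against C ranged from -0.38 to 0.0053 for TEAD1, -0.27 to 0.027 for LATS2, -0.084 to 0.11 for SAV1 and -0.14 to 0.076 for AMOTL2. T + WSD against WSD ranged from -0.037 to 0.37 for TEAD1, -0.053 to 0.16 for TEAD2, -0.15 to 0.062 for TEAD3 and -0.072 to 0.075 for AMOTL2, and T + WSD against T from -0.058 to 0.081 for TEAD3. The interaction ranged from -0.16 to 0.058 for TEAD2, -0.15 to 0.13 for LATS2 and -0.042 to 0.17 for AMOTL2.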
